A study of Mus musculus with 8 samples.

Results

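The 38 genes described here encode parts of the machinery of the cell division cycle. They form 2 sets by phase: 18 genes of DNA replication (Mcm2 to Gmnn, called the replication set) and 20 genes of chromosome condensation, the spindle and cell division (from Mki67 on, the mitotic set). They were taken by gene symbol from a table of 24453 genes. All 38 were found, and all 38 passed the filter on low values together with 15547 genes in all. Messenger RNA was sequenced in 8 libraries of mouse T cells sorted as CD4+ and Foxp3+, which is the phenotype of regulatory T cells (Treg cells), the lymphocytes that restrain immune responses. T138 (2 libraries) and T143 (3 libraries) are each 1 mouse line grown by nuclear transfer from the nucleus of a T cell. Per the series description, T138 models naturally occurring Treg cells and T143 agonist-induced ones, and the question was whether they are distinct subsets. WT stands for wild type (3 libraries). Replicates 1, 2 and 3 are the libraries lettered A, B and C. No treatment, age or sex is given in the labels, and all 8 libraries, WT included, carry the strain name NOD-Foxp3GFP-Rag1-/-, with a green fluorescent reporter of Foxp3 and a knockout of Rag1. It is not known whether the WT mice carried the Rag1 knockout, so Rag1 genotype and line cannot be told apart in a comparison with WT. Nothing in the labels says whether libraries of a group came from separate mice, so p-values measure the spread between libraries, which may be partly technical.

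A dividing cell first loads the MCM helicase onto replication origins, then copies its DNA in S phase, and then condenses and separates its chromosomes in mitosis. Transcripts of the replication genes are driven largely by E2F factors around the entry into S phase. Transcripts of the mitotic genes build up later, in G2 and mitosis, under the MuvB complex with B-Myb and FoxM1, through promoter elements called CHR and CCAAT. Treg cells at rest divide little, while activated Treg cells can divide quickly, so these transcripts are widely used as a measure of how many cells in a sample are cycling.

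Promoter sequence was looked at for these 3 elements, because they are the textbook difference between the phases. A RefSeq promoter entry on GRCm38.p6 was matched for 30 of the 38 genes (14 of the replication set and 16 of the mitotic set), each with 250 bases before the start of transcription and 50 after it. The E2F site was searched as TTTNNCGC, the CHR element as TTTGAA and the CCAAT box as CCAAT, on both strands, and no match of an element overlapped another element's in the stretches shown here. The E2F letters were in 7 of 14 replication promoters (Cdc6, Cdt1, Mcm3, Mcm5, Mcm6, Mcm7 and Tyms) and in 1 of 16 mitotic ones (Cdk1), against 5.17% of all 32851 promoters in the table. CHR letters were in 1 of 14 replication promoters (Mcm2) and 11 of 16 mitotic ones, against 17.9% of all. CCAAT was in 8 of 14 and 14 of 16, against 37.4% of all. A member counted if any of its promoter entries matched, while the shares of all promoters are over single entries, so the units differ. Counting bases before the start alone, the E2F letters were in 4 of 14 replication promoters and CHR in 8 of 16 mitotic ones. Shown here are stretches of the 3 genes of each set with the smallest p in any comparison and a match before the start, with the matches in capitals and each gene's own strand (minus for all 6) read 5′ to 3′. A match is a description and not a bound site. The stretch of Mcm2 (chr6:88898830-88898970) has a CCAAT box read from the other strand and then a CHR element, Pcna (chr2:132253248-132253282) has a CCAAT box, and Mcm7 (chr5:138171890-138172063) has an E2F site and 2 CCAAT boxes, all on the other strand. Cdc20 (chr4:118437344-118437411) has a CHR element between 2 CCAAT boxes, and Aurka (chr2:172370571-172370636) and Ccnb1 (chr13:100786534-100786600) have 2 CCAAT boxes each. The stretches of Mcm7 and Aurka lie before the start of their promoter entry but inside the RefSeq span of the gene (chr5:138164583-138172111 and chr2:172356190-172370886).
Mcm2: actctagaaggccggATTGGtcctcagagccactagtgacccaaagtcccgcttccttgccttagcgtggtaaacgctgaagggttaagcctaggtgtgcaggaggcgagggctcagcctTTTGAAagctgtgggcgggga
Pcna: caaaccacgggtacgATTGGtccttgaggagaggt
Mcm7: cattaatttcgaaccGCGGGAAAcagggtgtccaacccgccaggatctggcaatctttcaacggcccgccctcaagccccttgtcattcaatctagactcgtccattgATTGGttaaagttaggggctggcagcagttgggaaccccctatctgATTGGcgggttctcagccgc
Cdc20: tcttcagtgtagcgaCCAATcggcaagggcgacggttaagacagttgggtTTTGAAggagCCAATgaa
Aurka: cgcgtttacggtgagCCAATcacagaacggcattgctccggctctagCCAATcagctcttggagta
Ccnb1: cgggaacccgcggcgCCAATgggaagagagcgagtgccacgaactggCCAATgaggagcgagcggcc

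Values are normalised read counts as the authors deposited them, scaled to the same total in every library. Behind them are 15.84 and 18.41 M reads (T138), 7.83, 12.25 and 12.6 M (T143) and 22.64, 14.64 and 20.51 M (WT). A count of 3 reads, the floor that a count of 0 allows, is worth 2.07 to 5.97 depending on the library. The source names of T143 replicate 1 and WT replicate 1 point to a mouse of another group, while their titles give the group used here. Calls of the set members are therefore also given without both libraries. All 8 T cell and Treg markers (Foxp3, Ikzf2 and Cd4 the highest) were above the floor in every library. The Treg markers were lower in T143 than in the other groups. Foxp3 was at 3920 to 8694 in T143 against 29773 to 41854, and Ikzf2 at 3073 to 5014 against 16080 to 26423. Il2ra was at 909 to 1414 against 7099 to 13734, and Ctla4 at 601 to 2978 against 8760 to 11591. Cd4, Cd3d, Cd3e and Cd3g of T143 overlapped the other groups. Changes are differences of the group means of log2(value + 1). This scale can understate the change of low genes, and a value of 0 in a single library of a group can overstate it. A gene is called changed at a Benjamini-Hochberg adjusted p under 0.05 over all 15547 genes (limma, two-sided).

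**Figure D1:**
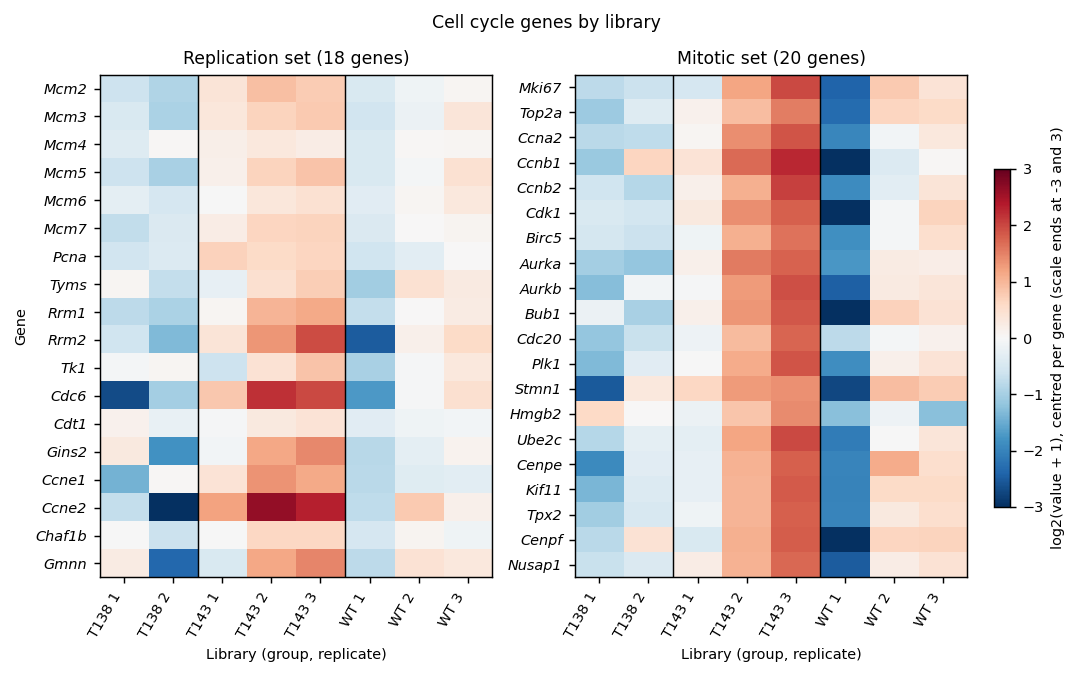
Heat map of each gene's log2(value + 1) in each library, centred on the gene's mean over the 8 libraries, with libraries in columns by group and genes in rows by set (left, replication; right, mitotic). T143 replicates 2 and 3 are the warmest columns in both sets, and WT replicate 1 is the coldest column of the mitotic set.

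Between the nuclear transfer lines, the called replication genes were all higher in T143 than in T138. Of the 18 members of the replication set 10 were called higher and 0 lower, where 10.8% of all genes tested were called higher and 10.2% lower. Their median log2 change was 1.33 (range 0.23 to 5.23), against 0.15 for all genes tested. In 12 of 18 all T143 libraries lay above both T138 libraries, which held for 28.0% of all genes. Without T143 replicate 1 and WT replicate 1, 11 of 18 were called higher. Without T138 replicate 2 the count was 5 of 18, and without T138 replicate 1 and T143 replicate 3 it was 3. In these bulk samples more cycling cells and more RNA per cell cannot be told apart.

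The called genes included 5 of the 6 subunits of the MCM helicase, the ring that unwinds DNA at the replication fork. Mcm2 (chromosome 6, 88883474 to 88898780, mm10) was at 879.9 and 723 (T138), 1777, 2539 and 2289.6 (T143) and 992, 1239.7 and 1419.7 (WT). Every T143 library lay above every T138 and WT library, and the change against T138 was 1.45 ± 0.21 (SE, limma adjusted p = 0.0013). Against WT it was 0.85 ± 0.18 (SE, limma adjusted p = 0.00805). Mcm7 was at 699.8 and 863 (T138), 1361, 1824 and 1852 (T143) and 869, 1171 and 1227 (WT), and its T143 libraries too lay above all others. Its change was 1.10 ± 0.21 (SE, limma adjusted p = 0.00526) against T138 and 0.63 ± 0.19 (SE, limma adjusted p = 0.0342) against WT. The call of Mcm7 against WT was kept in 12 of 19 alternatives. Mcm3 was at 1163 and 832 (T138), 2042, 2549 and 2744 (T143) and 1077, 1410.0 and 2046 (WT). The lowest T143 value of Mcm3 lay just under the highest WT value, and the changes were 1.30 ± 0.26 (SE, limma adjusted p = 0.0067) against T138 and 0.73 ± 0.23 (SE, limma adjusted p = 0.0435) against WT, the latter kept in 7 of 19 alternatives.

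Mcm5 was at 913 and 715 (T138), 1570.2, 2250.0 and 2573 (T143) and 1035, 1354 and 1934 (WT). Here T143 stood clear of T138 and overlapped WT, with changes of 1.37 ± 0.28 (SE, limma adjusted p = 0.00691) and 0.58 ± 0.25 (SE, limma adjusted p = 0.116). Mcm6 was at 2232 and 1915 (T138), 2705, 3448 and 3743 (T143) and 2144, 2846 and 3416 (WT), with 2 of the 3 WT libraries inside the range of T143. Its change was 0.66 ± 0.21 (SE, limma adjusted p = 0.0484) against T138, kept in 9 of 19 alternatives, and 0.25 ± 0.19 (SE, limma adjusted p = 0.38) against WT. Mcm4, the subunit with the smallest change against T138, was at 1775 and 2371 (T138), 2629, 2867 and 2701 (T143) and 1673, 2388 and 2415 (WT). It missed the threshold in both comparisons of T143, at 0.41 ± 0.19 against T138 (limma adjusted p = 0.154) and 0.36 ± 0.17 against WT (limma adjusted p = 0.163), although its T143 libraries were the 3 highest. Per kilobase of transcript, the mean level over the 8 libraries was alike for the 6 subunits, between 416 (Mcm7) and 655 (Mcm4) normalised reads per kb. By comparison Cdc6 was at 55.7 and Gins2 at 25.4 reads per kb.

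Pcna (chromosome 2, 132249286 to 132253180), the sliding clamp that holds DNA polymerase on its template, was at 411 and 467 (T138), 995, 915 and 959 (T143) and 406, 495 and 617 (WT). The T143 libraries lay between 915 and 995, and all stood above the WT maximum of 617. Its change was 1.12 ± 0.21 (SE, limma adjusted p = 0.00453) against T138 and 0.94 ± 0.19 (SE, limma adjusted p = 0.00527) against WT. Reads of Pcna and Mcm7 are less certain than those of Mcm2, because 31.8% and 34.2% of their 50-base stretches also occur in other annotated genes (0% for Mcm2 and Mcm3), and the sources used here do not give the counting of reads with several matches.

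Among the enzymes of deoxynucleotide supply, the large subunit of ribonucleotide reductase Rrm1 was at 767 and 684 (T138), 1377, 2693 and 2921 (T143) and 807, 1331 and 1588 (WT). Its change against T138 was 1.61 ± 0.34 (SE, limma adjusted p = 0.00891), and against WT, where T143 replicate 1 overlapped, it was 0.89 ± 0.30 (SE, limma adjusted p = 0.0584). The small subunit Rrm2, whose transcript is made in S phase, was at 372 and 224 (T138), 728, 1414 and 2168 (T143) and 98.5, 623 and 841 (WT). It spanned more between libraries of a group than Rrm1, and its changes of 2.18 ± 0.81 (SE, limma adjusted p = 0.0861) and 1.81 ± 0.73 (SE, limma adjusted p = 0.104) did not pass. Thymidylate synthase Tyms was at 307 and 180.3 (T138), 249, 414 and 493 (T143) and 144, 408 and 358 (WT), with all 3 groups overlapping and 0.65 ± 0.47 (SE, limma adjusted p = 0.352) against T138. Tk1, the thymidine kinase of the salvage route, ran from 134 to 484 over the 8 libraries and had the smallest change of the set, 0.23 ± 0.47 (SE, limma adjusted p = 0.758).

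Among the factors that license and fire origins, Cdc6, which loads the MCM ring, was at 22.6 and 74.5 (T138), 265, 697 and 594 (T143) and 44.8, 147 and 212 (WT). All T143 libraries stood above all others, with a change of 3.51 ± 0.71 (SE, limma adjusted p = 0.00709) against T138 and 2.09 ± 0.64 (SE, limma adjusted p = 0.0369) against WT. The call of Cdc6 against WT was kept in 11 of 19 alternatives. Its T138 values come from 23 and 88 reads. Cdt1, the partner of Cdc6 in loading, had the narrowest range in WT and ran from 623 to 1057 over the 8 libraries, at 0.28 ± 0.20 (SE, limma adjusted p = 0.347). Gmnn, whose product geminin blocks Cdt1, ran from 25.4 to 376, at 1.78 ± 0.78 (SE, limma adjusted p = 0.131). Gins2, a subunit of the GINS complex of the active helicase, ran from 22 to 220.3, at 1.60 ± 0.70 (SE, limma adjusted p = 0.127), with 70.4% of its 50-base stretches in other annotated genes. Chaf1b, a subunit of the chaperone that places histones on new DNA, ran from 235 to 565, at 0.73 ± 0.30 (SE, limma adjusted p = 0.11).

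The E cyclins, which drive the entry into S phase with Cdk2, were among the called genes. Ccne1 was at 106 and 293 (T138), 384, 729 and 636 (T143) and 165, 223 and 231 (WT). T143 was above both other groups, at 1.67 ± 0.43 (SE, limma adjusted p = 0.0202) against T138 and 1.46 ± 0.38 (SE, limma adjusted p = 0.0195) against WT. Ccne2 was at 29.5 and 0 (T138), 113, 309 and 250.0 (T143) and 28.2, 85.2 and 54 (WT), with T138 replicate 2 listed at 0 reads. Its change against T138 depends on how that 0 is treated. It was 5.23 ± 1.19 (SE, limma adjusted p = 0.0119), and 3.93 ± 1.01 (SE) with DESeq2. Against WT it was 2.00 ± 1.06 (SE, limma adjusted p = 0.203).

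In the mitotic set the difference between the lines was as large in its median, with a wider error. Its median log2 change was 1.69 (range 0.38 to 2.24) with a median SE of 0.79, against 0.32 for the replication set and 0.35 for all genes. Of the 20 members 2 were called higher in T143 than in T138 and 0 lower, a share near the 10.8% of all genes called higher, and all 20 changes were above 0. In 16 of 20 all T143 libraries lay above both T138 libraries, against 28.0% of all genes. Whether the sets differ in their change was not tested. The count depends on WT replicate 1, whose spread enters the shared error: without it 13 of the 20 were called, and without it and T143 replicate 1 17 were called, with a median change of 2.24. There were 4 calls without T143 replicate 1, 1 without WT replicate 3, and 0 without T138 replicate 1, T138 replicate 2, T143 replicate 2 or T143 replicate 3. DESeq2 called 11, a fit with the replicate number as a block 8, the 2 groups alone 5, and a fit with no filter 0. The markers of neutrophil precursors summed to 3401 to 32993 in T143 against 898 and 1582 in T138, and their part in the difference of either set was not tested.

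**Figure D2:**
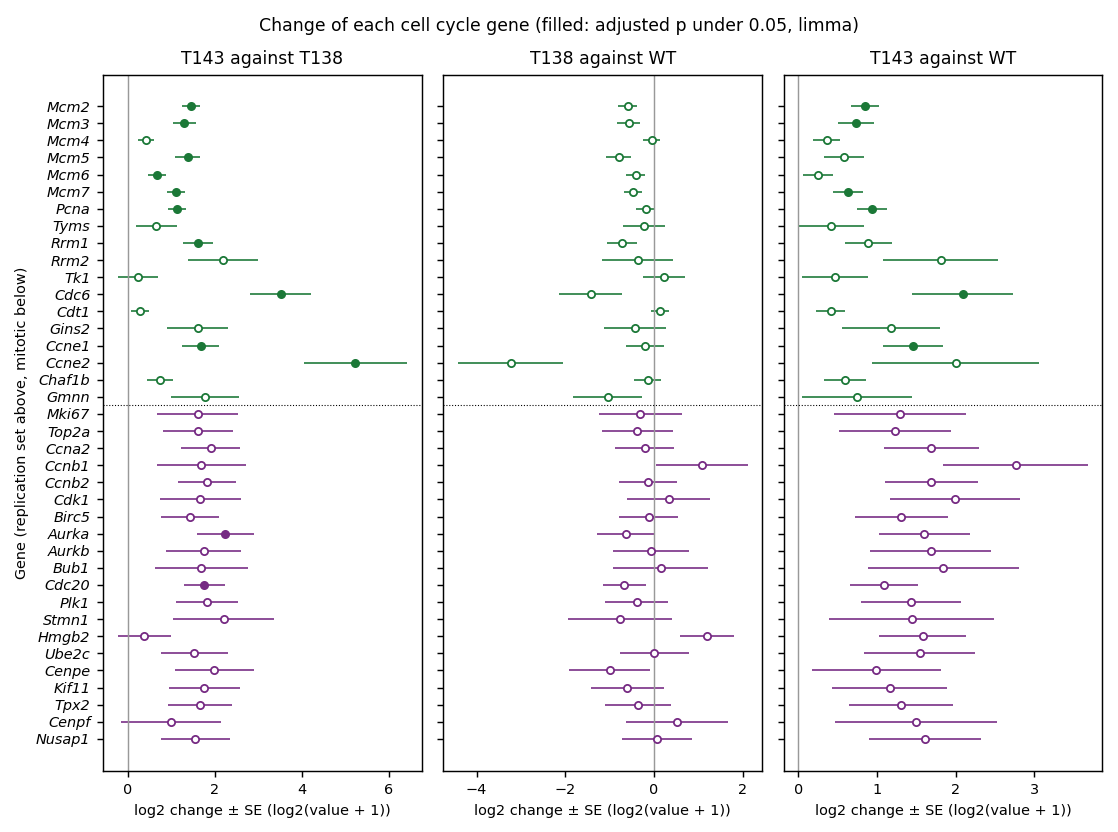
Log2 change of each of the 38 genes with its SE (horizontal bars) in the 3 comparisons, with the replication set above the dotted line and the mitotic set below it. Filled points passed an adjusted p under 0.05: 10 replication and 2 mitotic genes for T143 against T138, 0 and 0 for T138 against WT, and 6 and 0 for T143 against WT.

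The called mitotic genes were Aurka and Cdc20. Aurka, the Aurora A kinase of the spindle poles, was at 76.8 and 69.4 (T138), 173, 458 and 535 (T143) and 45.5, 185 and 178 (WT). Both T138 libraries were lower than the 3 T143 libraries, and the change was 2.24 ± 0.65 (SE, limma adjusted p = 0.0331). Cdc20, which switches on the anaphase-promoting complex, was at 153 and 213 (T138), 304, 659 and 1145 (T143) and 196, 326 and 370.1 (WT). It was the mitotic gene with the narrowest range in WT, and its change against T138 was 1.76 ± 0.48 (SE, limma adjusted p = 0.0271). With either T138 library, T143 replicate 2 or T143 replicate 3 left out, neither Aurka nor Cdc20 kept its call, with an adjusted p of up to 0.192 and 0.227 over all alternatives (limma, edgeR or DESeq2).

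The markers most used for cycling cells did not pass. Mki67, which encodes the Ki-67 antigen of cycling cells, was at 1556 and 1697 (T138), 1877, 6096 and 10485 (T143) and 504, 4614 and 3536 (WT). T143 replicate 1 lay close to T138, while replicates 2 and 3 were several times higher, and the change was 1.60 ± 0.94 (SE, limma adjusted p = 0.257). Top2a, the topoisomerase that untangles sister chromatids, was at 761 and 1245 (T138), 1781, 3101 and 4722 (T143) and 326, 2556 and 2432 (WT), at 1.61 ± 0.80 (SE, limma adjusted p = 0.183). T143 lay above T138 for both genes, and WT replicates 2 and 3 lay inside the T143 range. Cdk1, the kinase that drives mitosis, was at 206 and 193 (T138), 346, 749.6 and 979 (T143) and 32.4, 269 and 447 (WT), at 1.66 ± 0.93 (SE, limma adjusted p = 0.232). Its partner Ccnb1 (cyclin B1) was at 30.5 and 105 (T138), 89.5, 218 and 324 (T143) and 4.82, 50.05 and 68.4 (WT). T143 replicate 1 of Ccnb1 lay under T138 replicate 2, the change was 1.69 ± 1.03 (SE, limma adjusted p = 0.27), and 42.1% of its 50-base stretches occur in other annotated genes. Cyclin A2 (Ccna2, 140 to 2032 over the 8 libraries) and cyclin B2 (Ccnb2, 70.9 to 1108) came close to the threshold, at 1.90 ± 0.67 (SE, limma adjusted p = 0.0725) and 1.82 ± 0.66 (SE, limma adjusted p = 0.0754).

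The other mitotic kinases, checkpoint and spindle genes gave like changes with like errors. Plk1, the Polo kinase, was at 1.82 ± 0.71 (SE, limma adjusted p = 0.0964), and Aurkb, the Aurora B kinase of the chromosomal passenger complex, at 1.74 ± 0.86 (SE, limma adjusted p = 0.181). Birc5 (survivin, of the same complex) was at 1.43 ± 0.66 (SE, limma adjusted p = 0.153) and Ube2c, the ubiquitin-conjugating enzyme of the anaphase-promoting complex, at 1.53 ± 0.78 (SE, limma adjusted p = 0.194). Of the kinetochore and spindle genes, the motor Cenpe was at 1.99 ± 0.91 (SE, limma adjusted p = 0.152), the motor Kif11 at 1.76 ± 0.82 (SE, limma adjusted p = 0.156), Tpx2, which activates Aurora A, at 1.66 ± 0.74 (SE, limma adjusted p = 0.143), and Nusap1, which bundles spindle microtubules, at 1.55 ± 0.79 (SE, limma adjusted p = 0.194). The kinetochore protein Cenpf and the checkpoint kinase Bub1 had the widest errors of these, at 0.99 ± 1.15 (SE, limma adjusted p = 0.573) and 1.69 ± 1.07 (SE, limma adjusted p = 0.292). Hmgb2, a chromatin protein, had the smallest change of the set, 0.38 ± 0.61 (SE, limma adjusted p = 0.685). Hmgb2 and Stmn1 (stathmin, a microtubule regulator) were low in every library, at up to 189 and 87.9, and 21.9% and 36.5% of their 50-base stretches occur in other annotated genes.

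Against WT, the called replication genes were again all higher in T143, 6 of 18. T143 libraries enter both comparisons, so these values are not independent of the values against T138. The 6 were Mcm2, Mcm3, Mcm7, Pcna, Cdc6 and Ccne1, and 0 were called lower, where 11.7% of all genes were called higher and 12.1% lower. The median log2 change was 0.74 (range 0.25 to 2.09), against 0.05 for all genes, and in 8 of 18 the T143 libraries lay above all WT libraries (20.0% of all genes). Without WT replicate 1 the count was 2 of 18 and the median 0.49, and without T143 replicate 2 or replicate 3 it was also 2, and without WT replicate 2 it was 3. Without both T143 replicate 1 and WT replicate 1, Mcm2, Mcm7 and Pcna kept their call against WT. Mcm3, Cdc6 and Ccne1 lost it in that fit (limma adjusted p = 0.11, 0.0622 and 0.0549). Rrm1 and Rrm2 were called in it (limma adjusted p = 0.0115 and 0.0398). Mcm2 and Pcna kept their call in all 19 alternatives against WT, with adjusted p-values of up to 0.0386 and 0.0422 (limma, edgeR or DESeq2). Mcm2 also kept it in all 19 against T138 (up to 0.0223).

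For the mitotic set, T143 against WT gave 0 of 20 calls by limma and 0 by edgeR, 9 at an unadjusted p under 0.05 (all higher, against 18.5% of all genes), and 6 by DESeq2. The median log2 change was 1.52 (range 0.99 to 2.76), and Ccnb1 was the gene nearest the threshold at 2.76 ± 0.92 (SE, limma adjusted p = 0.0523) and the 1 gene whose T143 libraries lay above all WT libraries. This median rested on WT replicate 1: without it the median was 0.69, again with 0 calls. Mki67 then had a change of 0.29 ± 0.59 (SE, limma adjusted p = 0.763), against 1.29 ± 0.84 (SE, limma adjusted p = 0.306) with it. Without T143 replicate 1, WT replicate 2 or WT replicate 3, 7, 1 and 4 were called, and without T143 replicate 1 and WT replicate 1 together 9 were, with a median of 1.17.

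T138 against WT gave 0 calls of 18 replication and 0 of 20 mitotic genes with limma, edgeR and DESeq2, where 5.74% of all genes were called higher and 5.3% lower. At an unadjusted p under 0.05 there were 4 replication genes, all lower in T138 (Mcm2, Mcm5, Mcm7 and Ccne2), where 12.9% of all genes were lower at that threshold, and 0 mitotic ones. The largest negative changes were those of Ccne2, at -3.23 ± 1.19 (SE, limma adjusted p = 0.118), and Cdc6, at -1.42 ± 0.71 (SE, limma adjusted p = 0.256). The median log2 change was -0.41 for the replication set, -0.17 for the mitotic set and -0.06 for all genes. The mitotic median had no stable sign: it was 0.10 without WT replicate 2, 0.30 without WT replicate 3 and 0.26 with the replicate number as a block. Mcm2, Mcm5, Mcm7 and Rrm1 lay below all WT libraries in both T138 libraries, a pattern held by 19.8% of all genes, and Hmgb2 lay above them, as did 17.7%. Mcm5 was at -0.79 ± 0.28 (SE, limma adjusted p = 0.101) and Rrm1 at -0.72 ± 0.34 (SE, limma adjusted p = 0.228). Without WT replicate 1 the medians moved to -0.68 and -0.97, and without it and T143 replicate 1 there were 3 replication calls (Mcm2, Mcm5, Rrm1) and 3 mitotic calls (Mki67, Aurka, Top2a), all lower in T138. In that fit Mki67 was at -1.31 ± 0.27 (SE, limma adjusted p = 0.0315) and Rrm1 at -1.0 ± 0.16 (SE, limma adjusted p = 0.0143).

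The libraries of a group were further apart in the mitotic set than in the replication set. In WT the median range between the highest and lowest library was 2.71 (log2) for mitotic genes, 0.91 for replication genes and 0.61 for all genes tested. In T143 it was 1.88, 0.82 and 0.56, and in T138 with its 2 libraries 0.57, 0.45 and 0.26. Of the mitotic genes in WT, Cenpf had the widest range (4.04) and Cdc20 the narrowest (0.92). Of the replication genes there, Rrm2 had the widest (3.08) and Cdt1 the narrowest (0.26). These ranges are a description, since genes that cycle together are not independent.

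**Figure D3:**
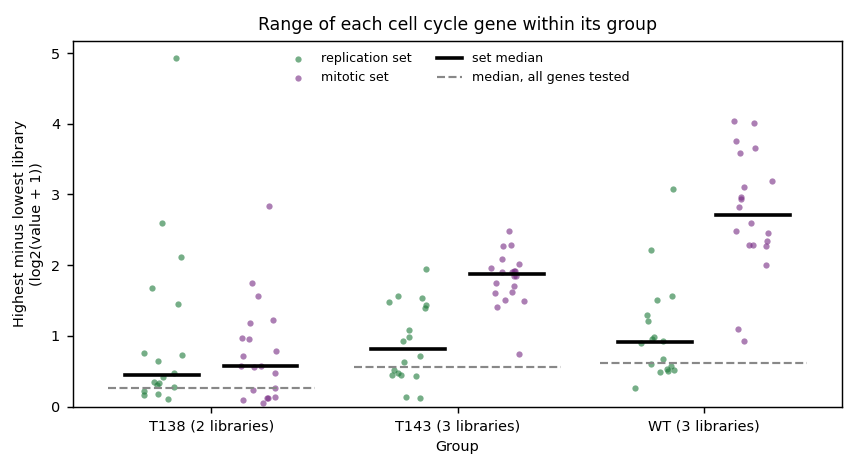
Range between the highest and lowest library of each gene within T138 (2 libraries), T143 (3) and WT (3), on the log2(value + 1) scale, for the replication set and the mitotic set, with the median of all genes tested. The mitotic genes reach 4.04 in WT, and their median range is 2.71 there and 1.88 in T143.

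WT replicate 1 set the width in WT. Averaged over each set, with each gene centred on its mean over the 8 libraries, its mitotic level was -2.26 (log2), against 0.27 and 0.35 in WT replicates 2 and 3. Its replication level was -0.80, against 0.03 and 0.18. It was the lowest WT library for 18 of 18 replication and 19 of 20 mitotic genes (all but Hmgb2), as it was for 30.4% of all genes. At least 2-fold below both other WT libraries it stood for 18 of 20 mitotic genes (all but Cdc20 and Hmgb2) and for 4 of 18 replication genes (Tyms, Rrm2, Cdc6 and Gmnn), against 13.9% of all genes. The summed mitotic signal was 1936 in WT replicate 1 and 6.43 and 6.16 times that in replicates 2 and 3. For the replication set the ratios were 1.44 and 1.70.

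The mitotic genes with the widest range in WT show what this means for a gene. Cenpf was at 154 and 362 (T138), 195, 557 and 951 (T143) and 24.8, 422 and 423 (WT), so WT replicate 1 was 17.0-fold below the lower of the other WT libraries. Bub1, the checkpoint kinase, was at 122 and 70.3 (T138), 155, 351 and 505 (T143) and 13.1, 226 and 188 (WT), a gap of 14.4-fold. Stmn1 was at 4.92 and 41.5 (T138), 51.7, 81.5 and 87.9 (T143) and 4.13, 63.9 and 57 (WT), where the 4.13 of WT replicate 1 comes from 6 reads. Cdk1, whose other values are given above, was at 32.4 in WT replicate 1 beside 269 and 447 in the other WT libraries. Ccnb1 was at 4.82 there, from 7 reads. WT replicate 1 was the deepest library, and all 20 mitotic genes were above its floor of 2.07.

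**Figure D4:**
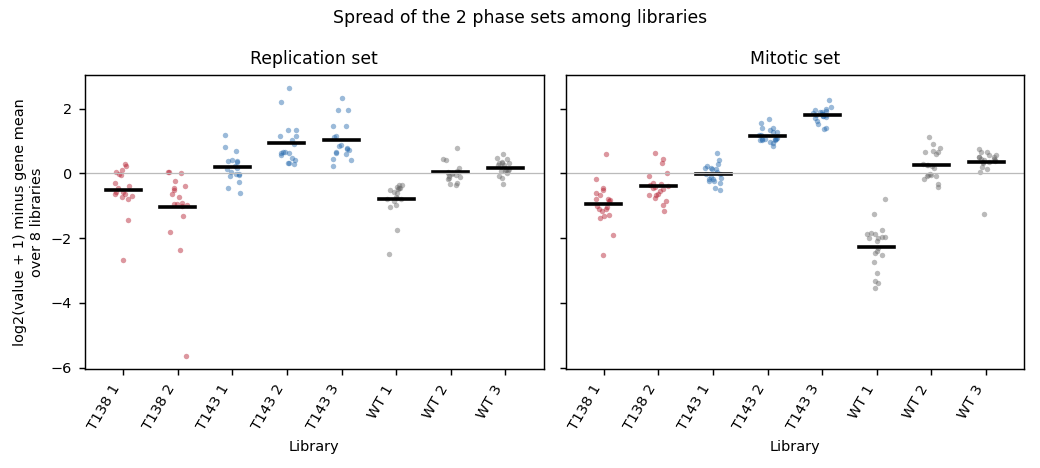
Level of each gene (small points) in each library as log2(value + 1) minus the gene's mean over the 8 libraries, with the mean of the set (bars), for the replication set and the mitotic set. The mitotic mean runs from -2.26 in WT replicate 1 to 1.80 in T143 replicate 3, and the replication mean from -1.04 in T138 replicate 2 to 1.03 in T143 replicate 3.

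Within T143 the libraries fell in the same order for both sets. The replication level was 0.19, 0.93 and 1.03 and the mitotic level -0.01, 1.17 and 1.80 in replicates 1, 2 and 3. Replicate 3 was the highest T143 library for 20 of 20 mitotic and 11 of 18 replication genes (34.6% of all genes). Replicate 1 was the lowest for 20 of 20 mitotic and 17 of 18 replication genes, Pcna being the exception (43.0% of all genes). It was at least 2-fold below both others for 16 of 20 mitotic and 5 of 18 replication genes (21.3% of all genes). Replicate 1 was also the shallowest library, and its mitotic level lay below that of WT replicates 2 and 3. For 14 of 20 mitotic genes its value was under both of those WT libraries, while 8 of 18 replication genes were above both.

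In T138 the 2 libraries ordered the sets in opposite ways. Replicate 1 had the higher replication level (-0.51 against -1.04) and replicate 2 the higher mitotic level (-0.38 against -0.94). Part of the gap in the replication mean is Ccne2, at 0 in replicate 2: the set's medians were -0.52 and -0.81, and the means of the MCM subunits -0.52 and -0.62. Of the replication genes 12 of 18 were higher in replicate 1, and of the mitotic genes 14 of 20 were higher in replicate 2. At least 2-fold apart were 5 of 18 (Cdc6, Gins2, Ccne1, Ccne2 and Gmnn) and 5 of 20 (Ccnb1, Aurkb, Stmn1, Cenpe and Cenpf). By the same rule 31.9% of all genes were. That share also counts genes not detected in 1 or both T138 libraries, so the members were not ranked against it. The replication level minus the mitotic level thus ran from 1.46 in WT replicate 1 to -0.78 in T143 replicate 3, with 0.43 and -0.66 in T138.

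Markers of other blood cells also differed among these libraries, and their part in the results was not tested. The 5 markers of neutrophil precursors, which divide (Mpo, Prtn3 and Elane the highest), summed to 1582 and 898 (T138), 3401, 9010.1 and 32993 (T143) and 2.76, 871 and 281 (WT). Within T143 and between WT replicate 1 and the other WT libraries this sum moved with the mitotic level, and in T138 it moved the other way. In WT replicate 1 Mpo, Elane and Ms4a3 were at 0 and 0 of 5 passed the floor, and Mpo was at 0, 701 and 225 in WT. The 9 neutrophil markers (S100a9, S100a8 and Ngp the highest) summed to 23672 and 3642 (T138), 93918, 158023 and 571972 (T143) and 35.1, 41.5 and 6.84 (WT). The 9 erythroid markers found of 10 listed (Hbb-bs, Hba-a1 and Hba-a2 the highest) summed to 1185 and 2421 (T138), 2770.2, 15461 and 7960.5 (T143) and 614, 686 and 246 (WT), and these were highest in T143 replicate 2, not in replicate 3.

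The 10 dendritic cell and MHC class II markers (Cd74, H2-Aa and H2-Eb1 the highest) summed to 102528 and 77145 in T138, 6868 to 28290 in T143 and 1259 to 1696 in WT. The 6 macrophage markers (Csf1r, C1qa and Adgre1) summed to 1729 and 1533 in T138, 1381 to 9117 in T143 and 228 to 393 in WT. The 8 B cell markers (Jchain, Cd79b and Mzb1) summed to 188 and 61.8 in T138, 39.8 to 95.3 in T143 and 639 to 2184 in WT, with Ebf1 at 0 in all libraries and Jchain at 123, 1987 and 955 in WT. The 5 CD8 T and NK markers (Cd8b1, Ncr1 and Klre1) summed to 102 to 642 over the 8 libraries, and the 5 immature thymocyte markers (Rag1, Dntt and Arpp21) to 29.8 to 151, with Ptcra at 0 in all. In another fit T138 replicate 1 and T143 replicate 3 (the libraries of each line with the highest neutrophil sum) were left out. T138 replicate 2 was then the only T138 library. The neutrophil sums were still 3642 in it against 93918 and 158023 in T143, so this fit did not even out the neutrophil markers. The median changes of the replication and mitotic sets were 1.21 and 0.92 for T143 against T138. For T143 against WT they were 0.60 and 1.12.

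**Figure D5:**
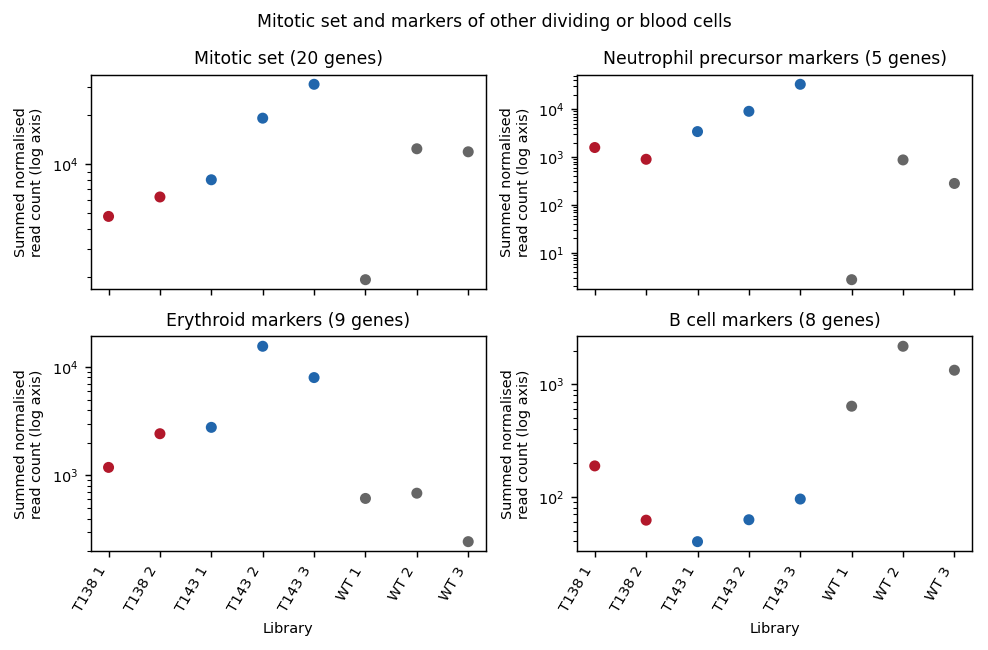
Summed normalised read count per library (log axes) of the mitotic set and of marker lists of other blood cells, with libraries on the horizontal axis and 1 point a library. The neutrophil precursor sum runs from 2.76 in WT replicate 1 to 32993 in T143 replicate 3, and the mitotic sum from 1936 to 31161 between the same libraries.

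Other cell cycle genes were read from 9 lists of 128 genes outside the 38, all of them found and tested. For T143 against T138 34 were called higher and 8 lower, with a median of 0.76. These are 26.6% and 6.25% of the 128, beside 10.8% and 10.2% of all genes. For T143 against WT 13 were higher (10.2%, near the 11.7% of all genes) and 4 lower (3.12%, beside 12.1%), with a median of 0.59. For T138 against WT 7 were higher (5.47%) and 8 lower (6.25%), near the 5.74% and 5.3% of all genes, with a median of -0.26. The 42 calls for T143 against T138 became 16, 15, 20 and 27 without T138 replicate 1, T138 replicate 2, T143 replicate 2 and T143 replicate 3. The 15 calls for T138 against WT became 8, 3, 8, 7 and 7 without T138 replicate 1, T138 replicate 2, T143 replicate 2, WT replicate 2 and WT replicate 3, and the 17 for T143 against WT became 9 without T143 replicate 2 and 10 without WT replicate 2. Genes of the replication fork had 8 of 21 called higher and 0 lower for T143 against T138, beside 10.8% of all genes. Among them were Pole2, a subunit of the leading-strand polymerase, at 2.42 ± 0.41 (SE, limma adjusted p = 0.00279), Prim2 of the primase at 1.91 ± 0.34 (SE, limma adjusted p = 0.00382), and Rfc1, which loads Pcna, at 0.82 ± 0.17 (SE, limma adjusted p = 0.0087). Of 13 genes of origin recognition and helicase activation 2 were called higher, a share near that of all genes, Cdc45 of the active helicase at 2.10 ± 0.35 (SE, limma adjusted p = 0.00244) and Orc2 of the origin recognition complex at 0.77 ± 0.17 (SE, limma adjusted p = 0.00959). Dbf4, the activator of the Cdc7 kinase, was called against WT, at 1.42 ± 0.35 (SE, limma adjusted p = 0.0156).

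In the list of deoxynucleotide supply, Dck and Dut were called higher in T143 than in T138 and Samhd1 lower. Dck, the deoxycytidine kinase, was at 1.03 ± 0.18 (SE, limma adjusted p = 0.00355), and Dut, which removes dUTP, at 1.25 ± 0.28 (SE, limma adjusted p = 0.0113). The lower gene was Samhd1, which breaks down deoxynucleotides, at 32672 and 30898 (T138), 14663, 15269 and 12836 (T143) and 20411, 24748 and 23593 (WT). Its change was -1.16 ± 0.15 (SE, limma adjusted p = 0.000646) against T138 and -0.68 ± 0.13 (SE, limma adjusted p = 0.00412) against WT.

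Among the regulators upstream, 4 of 20 E2F, pocket protein and MuvB genes were called higher and 1 lower for T143 against T138. Over all genes tested these shares were 10.8% and 10.2%. E2f1, an activator of replication genes, was at 45.3 and 33 (T138), 179, 215 and 269 (T143) and 86.1, 120.3 and 179 (WT), with T143 above T138 at 2.46 ± 0.43 (SE, limma adjusted p = 0.00339) and T138 below WT at -1.64 ± 0.43 (SE, limma adjusted p = 0.0353). E2f3, another activator, was at 0.97 ± 0.31 (SE, limma adjusted p = 0.0481). The other higher calls, named after their values were seen, were Tfdp1, the partner of E2F factors, and Rbbp4, a histone-binding subunit of MuvB. Rbl2 (p130), which represses these genes in resting cells, was at 11895 and 12937 (T138), 5256, 4496 and 5374 (T143) and 5378, 8063 and 7123 (WT). Here the order was turned: Rbl2 was lower in T143 than in T138, at -1.30 ± 0.18 (SE, limma adjusted p = 0.00111), and higher in T138 than in WT, at 0.88 ± 0.18 (SE, limma adjusted p = 0.0117).

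CDK inhibitors, which hold cells out of the cycle, were called higher in T138 than in WT for 4 of 7 genes and lower for 0. Over all genes tested 5.74% were called higher and 5.3% lower in this comparison. The sum of the dendritic cell and MHC class II markers was also higher in T138 (102528 and 77145) than in WT (1259 to 1696). Their part in the T138 values of this paragraph was not tested. Cdkn1c (p57) was at 490.1 and 519.9 (T138), 39.8, 47.1 and 38.4 (T143) and 39.3, 10.7 and 32.7 (WT), at 4.33 ± 0.60 (SE, limma adjusted p = 0.00162) against WT. Cdkn1a (p21) was at 374 and 508 (T138), 71.6, 115 and 239 (T143) and 43.4, 26.6 and 85.1 (WT), at 3.21 ± 0.59 (SE, limma adjusted p = 0.00701). Both genes were higher in both T138 libraries than in any other. The other called inhibitors, named after their values were seen, were Cdkn1b (p27) at 0.91 ± 0.19 (SE, limma adjusted p = 0.0111) and Cdkn2b (p15), a low gene, at 4.96 ± 1.15 (SE, limma adjusted p = 0.0203). For T143 against T138 3 of the 7 were called lower, Cdkn1c among them at -3.57 ± 0.60 (SE, limma adjusted p = 0.00275), and 1 higher, Cdkn2d (p19), at 0.84 ± 0.26 (SE, limma adjusted p = 0.044). Of 7 G1 cyclins and kinases, which respond to growth signals, 2 were called higher and 2 lower for T143 against T138. For both lists, the shares of all genes in this comparison were 10.8% called higher and 10.2% called lower. Cdk4 was higher at 1.04 ± 0.17 (SE, limma adjusted p = 0.00211), as was the phosphatase gene Cdc25a, named after its values were seen. Cdk6 was lower at -1.36 ± 0.26 (SE, limma adjusted p = 0.00516). Ccnd1 (cyclin D1) was at 683 and 605 (T138), 45.8, 259.6 and 205 (T143) and 17.2, 25.6 and 31.2 (WT), lower in T143 than in T138 at -2.24 ± 0.67 (SE, limma adjusted p = 0.0373) and higher in T138 than in WT at 4.69 ± 0.67 (SE, limma adjusted p = 0.00184).

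Mitotic genes outside the set were counted beside the 10.8% of all genes called higher and the 10.2% called lower for T143 against T138. Of 16 kinetochore and checkpoint genes 4 were called higher and 0 lower, Bub3 at 0.77 ± 0.19 (SE, limma adjusted p = 0.0161), the cohesin protector Sgol1 at 3.19 ± 0.80 (SE, limma adjusted p = 0.0187), the checkpoint kinase Ttk at 2.89 ± 0.76 (SE, limma adjusted p = 0.0218) and, named after its values were seen, Casc5 (Knl1), a kinetochore scaffold. Of 24 spindle and cytokinesis genes 6 were called higher and 0 lower, among them Tacc3 at 1.64 ± 0.44 (SE, limma adjusted p = 0.0239), Cks1b at 1.83 ± 0.52 (SE, limma adjusted p = 0.0302) and Hmmr, which was at 0 in T138 replicate 2, at 5.50 ± 1.51 (SE, limma adjusted p = 0.0305). For T143 against WT these lists had 2 of 16 (Bub3 and, named after its values were seen, Spc24) and 0 of 24 called higher, beside 11.7% of all genes, and for T138 against WT 0 and 0. Of 13 genes of condensin and chromosome structure 3 were called higher and 1 lower for T143 against T138. Smc2, a condensin subunit, was higher at 1.46 ± 0.29 (SE, limma adjusted p = 0.00691), and Ncapg2 of the second condensin complex at 2.61 ± 0.64 (SE, limma adjusted p = 0.0177). The other calls of this list, named after their values were seen, were the histone variants H2afx (higher) and H2afz (lower). Smc4, the partner of Smc2, was at 11355 and 11869 (T138), 12368, 12019 and 8588 (T143) and 20353, 20956 and 15593 (WT), did not pass against T138 at -0.10 ± 0.19 (SE, limma adjusted p = 0.747), and was lower in T143 than in WT at -0.79 ± 0.17 (SE, limma adjusted p = 0.00812).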

How the data were processed

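Messenger RNA of sorted CD4+ Foxp3+ cells was sequenced with a stranded poly(A) kit, per the labels' protocols. The authors deposited a signal per gene, which the values show to be reads scaled to a common total (15.59 M). Build mm10 and the tools STAR 2.5.2b, HOMER 4.8, CASAVA 1.8.2 and edgeR are listed, without roles, per the submitters' processing notes. The sources used here do not state how strand, duplicates or multi-mapped reads were counted, so overlapping and antisense genes are uncertain. Every value was a whole multiple of 1 read (100% within 0.01), which gave back the reads, and edgeR's quasi-likelihood test on these called 2718 genes (T143 against T138), 1278 (T138 against WT) and 3263 (T143 against WT). Floors cover counting error only. All value columns were matched to a library.

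The main test was limma 3.58.1 (R 4.3.3; empirical Bayes with trend and robust fitting) on log2(value + 1) in all 8 libraries together, since T138 has 2, with group means and no covariate, for genes that reached a value of 1 in 2 or more libraries. The procedure was run on simulated counts with independent noise for each gene, so shifts shared by many genes of a library were not covered. Alternatives were pseudocount 10, no filter, a stricter filter, quantile and median scaling, edgeR 4.0.16 and DESeq2 1.42.0 on the recovered reads, 2 groups only, a replicate block, and leaving out libraries. Gene positions, promoters and names came from RefSeq and transcripts from GENCODE, on GRCm38. Values were printed by rule for called members, Pcna, Mcm2, Mki67, Top2a, Ccnb1, Cdk1 and the 4 members of each set with the widest WT range, and for Mcm4, added to complete the MCM subunits after its values were seen. From each other list up to 3 called genes with the smallest p, and from each marker list the 3 highest genes, were named. Some results of the deoxynucleotide supply list are not reported here. The members and lists were chosen with earlier results of these data known.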

Additional observations from a re-analysis of the deposited data

How the results depend on the processing

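Groups of 2 and 3 libraries limit every test here, and 1 library can decide a count. With each library left out in turn, calls for T143 against T138 ran from 5 (without T138 replicate 2) to 11 of 18 replication genes and from 0 to 13 (without WT replicate 1) of 20 mitotic genes, around 10 and 2. For T143 against WT they ran from 2 to 7 and from 0 to 7, around 6 and 0, and for T138 against WT from 0 to 1 and from 0 to 0, around 0 and 0. Without T143 replicate 1 and WT replicate 1, the mitotic counts were 17 (T143 against T138), 9 (T143 against WT) and 3 (T138 against WT), and the replication count for T138 against WT was 3. Without T138 replicate 1 and T143 replicate 3, the replication counts were 3, 3 and 1 in the same order, and the mitotic count for T143 against T138 was 0. With no filter, calls fell to 0 mitotic genes for T143 against T138 and 3 replication genes for T143 against WT. With 2 groups only, 5 mitotic genes were called for T143 against T138. DESeq2 called 11 mitotic genes for T143 against T138 and 6 against WT. Pseudocount 10 and median centring each called 1 mitotic gene for T143 against WT. The cause of these moves was not tested, other than that no filter means more genes tested and left-out libraries mean fewer samples. No value changed sign on a call.

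With the replicate number as a block, 8 mitotic genes were called for T143 against T138 and 14 against WT, beside 9 and 9 replication genes. The labels do not say that a number marks a shared mouse or day, and deviations of same-numbered T143 and WT libraries correlated at 0.024, 0.055 and 0.022, each the highest for its own number but under 0.1, so the numbers were not read as pairs. Over all genes, no filter called 1962, 900 and 2460 (T143 against T138, T138 against WT, T143 against WT), against 3272, 1716 and 3698. Leaving out T138 replicate 2 called 1345 and 757 for the comparisons of T138, and T138 replicate 1 2050 and 998, while without T138 replicate 1 and T143 replicate 3 they were 1737 and 989. Without T143 replicate 2, 2025 were called against T138 and 2460 against WT, and without WT replicate 3, 1103 for T138 against WT. Calls in the other cell cycle lists ran from 13 (without T138 replicate 1 and T143 replicate 3) to 61 (without T143 replicate 1 and WT replicate 1) for T143 against T138, around 42. For T143 against WT they were 34 with DESeq2 and 38 with the block, around 17. Quantile normalization put the all-gene median at 0.01 in place of 0.15 (T143 against T138) and at -0.08 in place of 0.05 (T143 against WT), and the changes of the members are to be read against those medians.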
